A study of Mus musculus with 18 samples.

Results

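Brown adipocytes of the mouse line BAT-LgT were stimulated with isoproterenol (ISO), which activates all β-adrenergic receptors, after the lipases of the triglyceride store had been inhibited. The comparison took 6 of the 18 RNA-seq libraries of the study, chosen by their titles: 3 of cells given lipase inhibitors and then ISO (Lipase Inh. + ISO) and 3 of cells given lipase inhibitors and then DMSO (Lipase Inh. + Vehicle). Both groups were wild type, and both had been differentiated for 7 days and had received inhibitors of ATGL and HSL for 1 h, so that the groups differed only by 100 nM ISO or DMSO for the next 3 h. The other 12 libraries were Vehicle, ISO, SR-3420 (a ligand of ABHD5 that activates ATGL without a receptor) and Lipase Inh. + SR-3420, with 3 in each, and they entered the same fit. BAT-LgT is 1 line of preadipocytes immortalised with SV40 large T antigen and differentiated in culture with dexamethasone, IBMX, T3 and insulin. It is therefore a model without the vessels, nerves and immune cells of brown fat. The study states that its RNA-seq came from 3 independent experiments, but the labels do not say which libraries shared one, and the p-values measure the spread between these libraries.

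β-Adrenergic receptors couple to Gs, which turns on adenylyl cyclase, and the cAMP formed releases the catalytic subunits of protein kinase A (PKA). PKA phosphorylates CREB and its coactivators, which act on genes with cAMP response elements, and it also phosphorylates perilipin and HSL, which starts lipolysis. The fatty acids released fuel uncoupled respiration through UCP1 and are ligands of PPARs, so a receptor agonist normally reaches the genome by both routes. With ATGL and HSL inhibited, the receptor, cAMP and PKA arm was stimulated while release of fatty acids from the store was blocked. Lipolysis itself is not a measurement in the counts analysed here.

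The 6 libraries held between 11195260 and 21205032 counts. Markers of mature adipocytes were abundant in both groups (a mean of 3039 CPM of Adipoq and 2394 CPM of Fabp4 in Lipase Inh. + Vehicle, where CPM is the count scaled to library size, with TMM factors). Pparg, the master regulator of the fat cell, was at 516 CPM in Lipase Inh. + Vehicle and 514 CPM in Lipase Inh. + ISO. Of the brown fat markers, Ucp1, Ppargc1a, Prdm16, Ebf2 and Cidea were measured, whereas Zic1 and Lhx8, 2 other genes often used to mark brown fat, had at most 2 and 0 counts in any of the 6 libraries. Among 11 endothelial and blood cell markers 1 (Cd68) passed the filter on low counts, and Cdh5, Ptprc and Emr1 had at most 1, 0 and 0 counts. Among 9 myoblast and muscle markers 4 passed the filter. They summed to 22.5 to 27.6 CPM without ISO and 28.1 to 30.7 CPM with it, and 0 of them were called. Of those that did not pass, Myf5, Myog and Pax7 had at most 0, 1 and 0 counts. The 9 markers of precursors and fibroblasts summed to 649 to 706 CPM without ISO and 728 to 791 CPM with it, and 0 of them were called. Total RNA of a culture cannot tell fewer cells of a type from less RNA per cell.

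With lipolysis blocked, ISO still moved a large part of the transcriptome, and more genes fell than rose. Of 12156 genes tested, 660 were called higher (5.43%) and 928 lower (7.63%), where a call needed both an adjusted p-value no higher than 0.05 and a change of 1 or more on the log2 scale in either direction. The rises were the larger in size. A change of 3 or more on the log2 scale was reached by 52 genes that rose and by 15 that fell. The genes called higher took 5.92% to 5.95% of all counts in Lipase Inh. + Vehicle and 14.1% to 14.4% in Lipase Inh. + ISO, while the genes called lower went from 5.65% to 5.71% down to 1.74% to 1.87%. The TMM factors, which adjust for differences of composition, were 0.930 to 0.938 with ISO and 1.08 to 1.09 without. They assume that most genes did not change, which was not tested. When libraries were scaled by total counts only, the log2 fold change of the median gene shifted by -0.23 and the calls became 439 higher and 1436 lower, so that 23.4% of calls were rises in place of 41.6%. Of the rises named below, those of Abhd5, Adora2b, Adrb1, Atf3, Atp5d, Col4a1, Col4a2, Fzd9, Gys1, Hk1, Hsp90aa1, Hspa8, Id2, Idi1, Junb, Lpl, Pfkp, Rorb, Slc2a1 and Tpi1 stayed positive with that scaling but were no longer called.

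**Figure D1:**
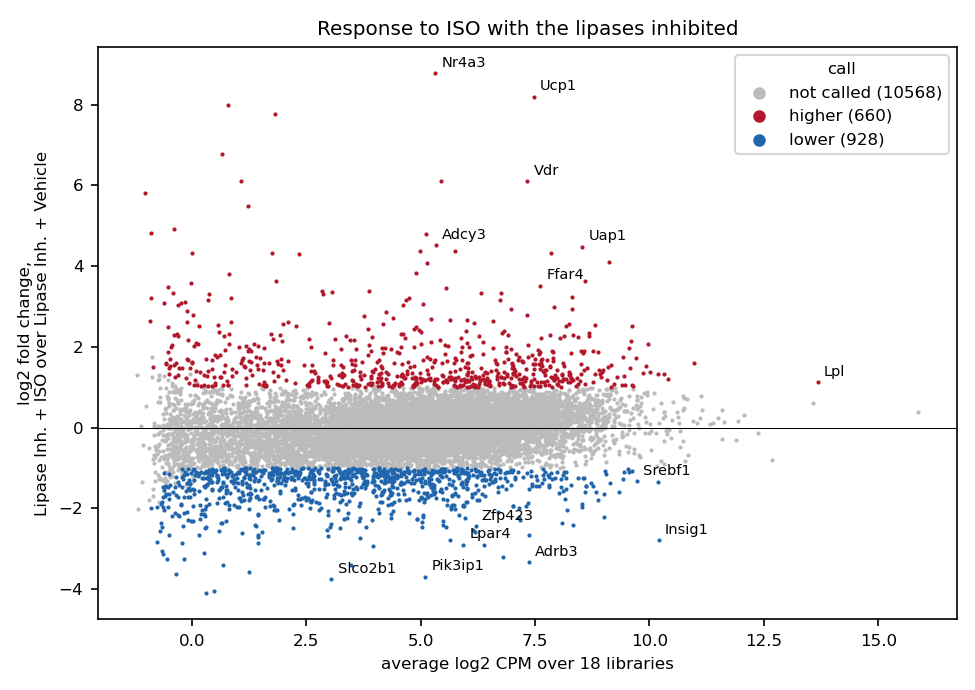
Log2 fold change of Lipase Inh. + ISO over Lipase Inh. + Vehicle (y axis, 3 libraries a group) against the average log2 CPM over all 18 libraries (x axis) for the 12156 genes tested. Red points are the 660 genes called higher and blue points the 928 called lower; the named rises reach further from 0 than the named falls.

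Nr4a3, Ucp1 and Vdr were among the genes with the largest rise. Nr4a3, an orphan nuclear receptor and immediate early gene, was at 0.219, 0.412 and 0.173 CPM in the 3 Lipase Inh. + Vehicle libraries (counts of 3, 5 and 3) and at 125, 99.1 and 125 CPM in the 3 Lipase Inh. + ISO libraries. Its log2 fold change was 8.78 ± 0.25 (SE, as for all fold changes below, with 3 libraries a group; edgeR quasi-likelihood test, adjusted p = 2.69e-17). Ucp1, which uncouples respiration to make heat and defines the thermogenic fat cell, went from 2.92, 2.80 and 1.39 CPM to 683, 789 and 553 CPM, a log2 fold change of 8.20 ± 0.29 (adjusted p = 8.66e-16). The gene lies on chromosome 8 of mm9, 85814247 to 85822355. Vdr, the vitamin D receptor (chromosome 15, 97684858 to 97738727), went from 11.4, 12.03 and 12.3 CPM to 831, 816 and 822 CPM (log2 fold change 6.11 ± 0.094, adjusted p = 9.67e-22). The lowest library with ISO lay far above the highest without it for each of these genes.

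The other 9 of the 12 largest rises among well expressed genes (average log2 CPM no lower than 3, with the sign shared by the 3 pairs of equal number) were Cldn1, Gfpt2, Adcy3, Uap1, Dos, Lrrn4cl, Pde4d, Clstn3 and Cyp2ab1. Cldn1, which encodes a tight junction protein, went from 1.97, 3.54 and 3.06 CPM to 200.4, 199.6 and 195 CPM (6.11 ± 0.14). Clstn3, a calsyntenin, was the most abundant of the 12 after ISO, with 97.4, 127 and 84.4 CPM without and 1693, 1689 and 1894 CPM with it (4.10 ± 0.14, adjusted p = 6.77e-16). Cyp2ab1, a cytochrome P450, rose from 9.70, 5.77 and 10.4 CPM to 149, 157 and 137 CPM (4.07 ± 0.19), and Dos and Lrrn4cl had log2 fold changes of 4.38 ± 0.12 and 4.36 ± 0.11. Some larger fold changes rest on a baseline near 0 counts and are given as counts: Hal, histidine ammonia-lyase, had 0, 0 and 1 counts without ISO and 81, 90 and 184 with it. No library with ISO overlapped one without it for any of these genes, which follows largely from their choice by size and sign of change. At the other end of the scale of expression, Lpl, Acsl1, Hspa8, Pkm and Cd164 were the most abundant mRNAs called higher, and Cd164, a sialomucin, went from 732, 728 and 740.3 CPM to 1858, 1851 and 1792 CPM (1.32 ± 0.091).

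The promoters of a few genes at both ends of the response are shown because cAMP response elements are the best known DNA sites of this pathway. They are RefSeq promoters of build GRCm38.p6 (a later build than the mm9 of the counts), 250 bases before to 50 after an annotated start, 5′ to 3′ on the gene's strand. Capitals mark the full element TGACGTCA in Clstn3 and the shorter core site TGACG, or CGTCA where it is read on the other strand, in the others. The promoter of Nr4a3 is chr4:48045055-48045354 (plus strand), that of Ucp1 is chr8:83290098-83290397 (plus strand), that of Clstn3 is chr6:124464735-124465034 (minus strand) and that of Insig1 is chr5:28071162-28071461 (plus strand).
Nr4a3: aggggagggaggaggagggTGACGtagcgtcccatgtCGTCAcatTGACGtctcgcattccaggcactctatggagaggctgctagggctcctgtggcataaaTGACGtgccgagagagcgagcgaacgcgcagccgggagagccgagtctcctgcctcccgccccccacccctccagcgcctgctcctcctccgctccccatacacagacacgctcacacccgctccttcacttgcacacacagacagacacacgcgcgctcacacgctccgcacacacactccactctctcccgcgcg
Ucp1: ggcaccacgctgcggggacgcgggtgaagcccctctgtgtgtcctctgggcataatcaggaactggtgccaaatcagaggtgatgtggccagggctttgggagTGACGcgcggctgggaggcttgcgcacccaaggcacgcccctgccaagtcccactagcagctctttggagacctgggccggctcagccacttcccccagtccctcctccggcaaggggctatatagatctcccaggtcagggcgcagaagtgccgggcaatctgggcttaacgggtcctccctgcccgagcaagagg
Clstn3: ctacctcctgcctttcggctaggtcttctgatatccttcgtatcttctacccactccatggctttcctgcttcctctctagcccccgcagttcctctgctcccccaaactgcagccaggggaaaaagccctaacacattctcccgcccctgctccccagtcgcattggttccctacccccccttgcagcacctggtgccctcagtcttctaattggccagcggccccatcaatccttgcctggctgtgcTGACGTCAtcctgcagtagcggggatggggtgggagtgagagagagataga
Insig1: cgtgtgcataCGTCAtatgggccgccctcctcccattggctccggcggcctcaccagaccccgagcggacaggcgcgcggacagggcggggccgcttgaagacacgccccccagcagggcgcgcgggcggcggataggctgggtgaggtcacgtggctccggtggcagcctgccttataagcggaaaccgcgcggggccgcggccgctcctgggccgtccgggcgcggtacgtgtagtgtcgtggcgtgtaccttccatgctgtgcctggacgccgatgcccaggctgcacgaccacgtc

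Nr4a3 held 4 core sites in this window, Ucp1 held 1, and Insig1, whose mRNA fell, also held 1. The core site is a common word: it lies in a promoter of 35.6% of the 9727 tested genes with a promoter in the table, and the full element, which contains it, in 3.64%. Of the 12 genes with the largest rise, 11 had a promoter there and 5 held a core site (Ucp1, Nr4a3, Uap1, Dos and Clstn3). Of the 15 with the largest fall, 14 had one and 3 held it (Insig1, Slco2b1 and Tmem179). A match describes letters, not binding. Shares over all called genes are not given, since 521 of the 660 and 707 of the 928 had a promoter sequence and the matching was too incomplete for such a check.

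Transcription factors and coactivators that answer to cAMP were divided. Of 30 tested, 10 were called higher (33.3%) and 0 lower, with a median log2 fold change of 0.31 beside -0.011 for all genes. Fosl1, a Fos family member, rose from 4.37, 3.05 and 3.70 CPM to 33.6, 40.1 and 26.8 CPM (log2 fold change 3.15 ± 0.18), and Crem, which gives rise to the cAMP-inducible repressor ICER, rose from 11.7, 16.0 and 13.2 CPM to 77.3, 74.6 and 77.0 CPM (2.49 ± 0.11). All 3 NR4A receptors rose. Nr4a1 had log2 fold change 2.34 ± 0.11 and Nr4a2 2.18 ± 0.15. Ppargc1a, the coactivator of mitochondrial biogenesis, went from a mean of 90.7 CPM to 326 CPM (1.85 ± 0.083), and Klf4, Nfil3, Junb and Atf3 rose by between 1.14 and 1.52. Fos, Egr1 and Jund did not rise. Fos was at 9.26, 15.2 and 7.86 CPM without ISO and 11.5, 12.4 and 5.73 CPM with it, so that the groups overlapped (adjusted p = 0.709). Egr1 had a log2 fold change of -0.56 ± 0.18 and Jund one of -0.48 ± 0.11, both under the threshold of size although past that of the adjusted p.

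The cAMP pathway itself changed at several of its steps. Of 39 genes tested, 10 were called higher (25.6%) and 3 lower (7.69%), beside 5.43% and 7.63% of all genes tested. The median of the list was 0.071, or -0.15 with total counts only. Adcy3, an adenylyl cyclase, rose from 5.47, 5.27 and 5.43 CPM to 128, 129 and 115 CPM (log2 fold change 4.52 ± 0.13, adjusted p = 3.56e-17). Adcy6, another cyclase, went from a mean of 147 CPM to 535 CPM (1.87 ± 0.12), whereas Adcy5 fell from 8.68 CPM to 3.97 CPM (-1.12 ± 0.15). The 3 cyclases thus did not change as a family. Of the phosphodiesterases, which break down cAMP, 5 were called higher, led by Pde4d from 32.5, 23.3 and 30.9 CPM to 598, 549 and 603 CPM (4.33 ± 0.10). Pde10a had log2 fold change 4.29 ± 0.32, and Pde7b, Pde8a and Pde3b lay between 1.46 and 2.01. Prkar1a, the regulatory subunit that holds PKA inactive, rose by 1.43 to a mean of 929 CPM, and Sik1, a kinase that retains the CREB coactivators in the cytoplasm, by 1.43. The catalytic subunits Prkaca and Prkacb had log2 fold changes of 0.045 and -0.0033, and neither passed the test (adjusted p = 0.656 and 0.976).

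Receptors for the agonist went in both directions. Adrb3, the main β-receptor of rodent fat cells, fell from 227, 293 and 183 CPM to 23.5, 24.5 and 21.9 CPM, a log2 fold change of -3.33 ± 0.17 (adjusted p = 4.46e-13). Adrb1, by contrast, rose from 8.38, 9.06 and 7.17 CPM to 16.3, 24.2 and 15.8 CPM (1.19 ± 0.16, adjusted p = 1.90e-06). Without inhibitors both receptors had log2 fold changes of -1.60 and 0.30 with ISO, and the differences between the conditions passed the interaction test (adjusted p = 3.84e-06 and 0.00639).

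**Figure D2:**
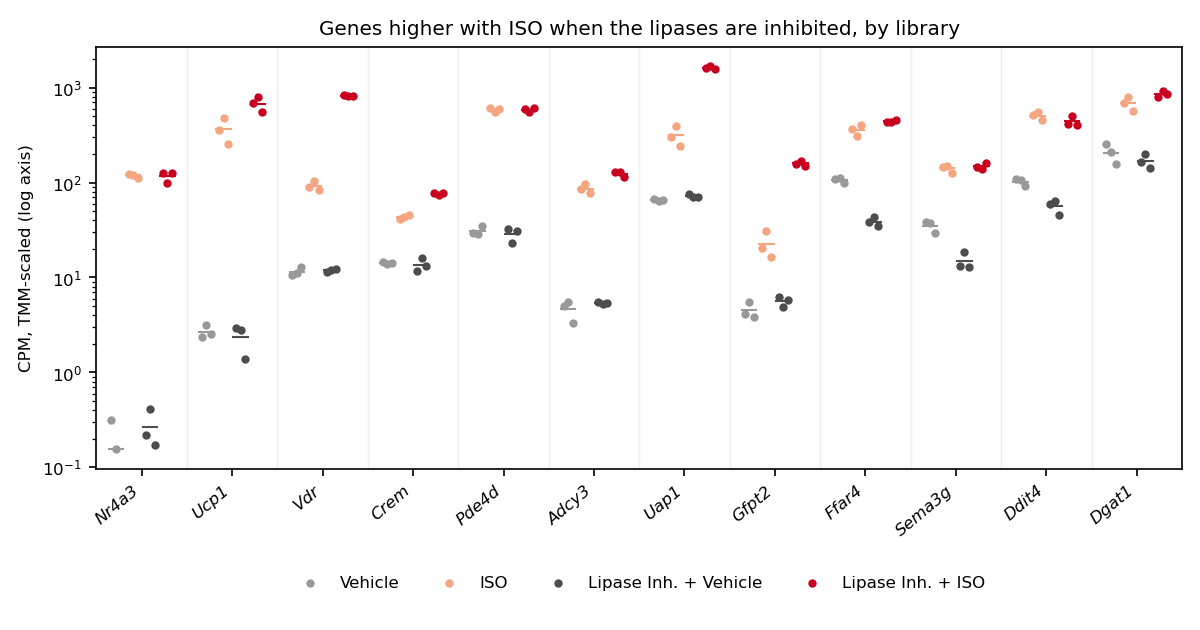
CPM on a log axis (y) of 12 genes called higher (x), 1 point a library and a bar at the mean of 3, for Vehicle (light grey), ISO (orange), Lipase Inh. + Vehicle (dark grey) and Lipase Inh. + ISO (red). Vdr, Uap1 and Gfpt2 stand higher with inhibitors and ISO than with ISO alone, whereas Nr4a3 and Pde4d reach similar levels in both; 1 Vehicle library with no count of Nr4a3 is not drawn.

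Feedback on MAP kinase signalling formed a smaller group. Of 19 MAP kinase phosphatases, Sprouty and Socs genes, 4 were called higher and 1 lower. Dusp5, a nuclear ERK phosphatase, rose from 9.33, 9.64 and 10.5 CPM to 54.7, 57.4 and 47.3 CPM (2.43 ± 0.16), Spred2 by 2.37 and Dusp4 by 1.71. Spry1 fell by 1.14 on the log2 scale. Dusp1 and Spry4 were at 0.70 and 0.49, against 2.82 and 3.30 without inhibitors (interaction adjusted p = 2.44e-07 and 6.81e-11).

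Thermogenic genes other than Ucp1 responded in part. Of 17 tested, 4 were called higher (Ucp1, Gyk, Elovl3 and Ppargc1a) and 1 lower (Adrb3). Gyk, the glycerol kinase that lets fat cells reuse glycerol, rose from 30.6, 35.02 and 32.4 CPM to 179, 168 and 167 CPM (2.39 ± 0.10). Elovl3, a fatty acid elongase typical of activated brown fat, rose from 3.50, 3.13 and 3.58 CPM to 13.3, 11.3 and 12.5 CPM (1.85 ± 0.16). Cidea and Cox8b, by comparison, had log2 fold changes of -0.054 and 0.036 and did not pass the test. Dio2, the deiodinase that makes T3 locally, had at most 2 counts in any of the 6 libraries.

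Genes of glucose metabolism were called higher more often than lower. Of 40 genes of glycolysis, glucose uptake and glycogen, 15 were called higher (37.5%) and 2 lower, and the median log2 fold change was 0.82; with total counts only 9 were higher and 2 lower, with a median of 0.60. Slc16a3, a lactate exporter, rose from 6.49, 7.74 and 6.13 CPM to 55.4, 64.7 and 65.4 CPM (3.20 ± 0.12), and Slc16a1, another monocarboxylate transporter, reached a mean of 858 CPM (1.55 ± 0.10). Of the enzymes of glycolysis and lactate, those called higher included 7 in the range from 1.04 to 1.52, namely Pfkfb3, which makes the activator of phosphofructokinase, Hk1, Pfkp, Tpi1, Pgam1, Pkm and Ldha. Pkm alone went from 909, 972 and 884 CPM to 2227, 2359 and 2313 CPM. The glucose transporter Slc2a1 rose by 1.21, while the insulin-sensitive Slc2a4 was at 0.33 ± 0.13, under the threshold of size, and Slc2a3 fell by 1.77. On the glycogen side Gys1 and the targeting subunit Ppp1r3c rose (1.14 and 1.40) and the phosphorylase Pygb fell from 187, 213 and 170.5 CPM to 64.1, 68.01 and 66.1 CPM (-1.52 ± 0.091). Gapdh had log2 fold change 2.70 ± 0.12, but its level of 12.6 CPM without ISO is far below that of its neighbours in the pathway, and the gene has many near-identical copies among which reads can be lost, so the value is uncertain.

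The hexosamine pathway, which turns fructose 6-phosphate into UDP-GlcNAc for glycosylation, held 2 of the 12 largest rises. Gfpt2, its first enzyme, went from 6.20, 4.94 and 5.84 CPM to 158, 169.5 and 149 CPM (4.80 ± 0.18, adjusted p = 2.27e-15). Uap1, its last, went from 76.1, 71.2 and 69.8 CPM to 1594, 1682 and 1577 CPM (4.48 ± 0.13, adjusted p = 2.69e-17) and so joined the abundant mRNAs of the cell. The enzymes between them did not share this: Gnpnat1 was at 0.14 and Pgm3 at 0.038 (adjusted p = 0.177 and 0.785), and Gfpt1, the other first enzyme, at 0.57. Glycosyltransferases were split. B4galt5 rose from 28.9, 26.0 and 32.6 CPM to 185, 196 and 180.0 CPM (2.67 ± 0.11), with Gcnt2, St3gal1 and Galnt11 also called higher, while St3gal6, Mgat4a, Fut10 and B3gnt8 were called lower. In all, 9 of 42 genes were higher (21.4%) and 4 lower (9.52%), beside 5.43% and 7.63% of all genes tested. B3gnt8 rests on few counts (1, 4 and 20 with ISO), and its call was lost when Lipase Inh. + ISO replicate 1 or 2 was left out (adjusted p = 0.0722 and 0.0563) or all libraries were thinned to 1 depth (adjusted p = 0.0923).

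Secreted factors were called higher more often than all genes tested, and lower about as often. Of 26 secreted factors 7 were called higher (26.9%) and 2 lower (7.69%), beside 5.43% and 7.63% of all genes tested. Sema3g, a class 3 semaphorin, rose from 13.2, 18.4 and 12.9 CPM to 146, 139 and 161 CPM (3.34 ± 0.14) and Apln, the ligand of the apelin receptor, from 70.5, 86.8 and 69.7 CPM to 310.2, 325 and 305 CPM (2.05 ± 0.080). Il6 was near the limit of detection, with counts of 4, 0 and 3 without and 20, 24 and 41 with ISO. Fgf21 did not pass the test (1.04 ± 0.48, adjusted p = 0.0686), against 6.72 without inhibitors. Angptl4, which inhibits lipoprotein lipase, fell from 604, 654 and 569.5 CPM to 191, 177 and 232 CPM (-1.60 ± 0.14), while Lpl, the lipase it inhibits, rose from 10790.5, 9922 and 11478 CPM to 23678, 21467 and 24868 CPM (1.12 ± 0.11). Adipoq and Vegfa were at 0.13 and 0.24.

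Ffar4, a receptor for long-chain fatty acids, rose from 38.2, 43.0 and 34.6 CPM to 434, 434 and 452 CPM (3.52 ± 0.10, adjusted p = 2.69e-17). The receptors called lower were Ffar2, Adora1, Lpar4 and Ptgfr. Ffar2, the receptor for short-chain fatty acids, went from 19.2, 24.6 and 16.8 CPM to 3.51, 5.86 and 4.46 CPM (-2.13 ± 0.16), Adora1, the antilipolytic adenosine receptor, from 138, 149.6 and 117 CPM to 34.4, 33.9 and 35.7 CPM (-1.95 ± 0.10) and Lpar4, a receptor for lysophosphatidic acid, from 73.6, 79.0 and 73.4 CPM to 10.4, 9.79 and 9.99 CPM (-2.90 ± 0.10). The Gs-coupled adenosine receptors Adora2a and Adora2b were called higher (3.11 and 1.097), both from levels under 1 CPM. Hcar2, the nicotinate receptor, was at 0.48 and Hcar1, the lactate receptor, at -0.26.

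Genes of fatty acid use and storage rose more often than they fell. Of 33 genes known as PPAR targets 10 were called higher (30.3%) and 2 lower (6.06%), beside 5.43% and 7.63% of all genes tested. Acsl1, which activates fatty acids to acyl-CoA, went from 817, 909 and 740.1 CPM to 2509.9, 2611 and 2386 CPM (1.61 ± 0.073), Cpt1a, the gate to mitochondrial oxidation in most tissues, by 1.68 and Pck1 by 1.76. Acot3 had counts of 0, 2 and 0 without ISO and 78, 61 and 114 with it. Several well known targets did not rise: Pdk4 was at -0.32, Plin2 at -0.64 and Cd36 at -0.34 (adjusted p = 0.0044, 4.84e-05 and 0.00173). Of 26 genes of lipolysis and lipid droplets 4 were called higher and 0 lower. Dgat1, which makes triglyceride from diacylglycerol, rose from 163, 199 and 141 CPM to 791, 919 and 853 CPM (2.35 ± 0.17), and Abhd5, the activator of ATGL, by 1.18. The targets of the inhibitors, Pnpla2 (ATGL) and Lipe (HSL), were at 0.16 and 0.24, both under the threshold of size.

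The repressed side was broader and shallower than the induced one. Its median log2 fold change was -1.33, beside 1.40 for the genes called higher. Of the 15 largest falls among well expressed genes, Slco2b1, an organic anion transporter, led with 14.8, 12.4 and 14.1 CPM without ISO and 0.630, 1.01 and 1.27 CPM with it (-3.75 ± 0.21, adjusted p = 2.32e-12). It was followed by Pik3ip1, Gprin3, Adrb3, 4632428N05Rik, Chdh, Strip2, Lpar4, Insig1, Tppp, Pdzd7, Mmp11, Per3, Tmem179 and Ano1, the last at -2.49 ± 0.22. Among the most abundant mRNAs that fell were Slc6a6, the taurine transporter, from 828, 858 and 836 CPM to 182, 165 and 197 CPM (-2.21 ± 0.067), and Aoc3, an amine oxidase of the fat cell surface, from 1484, 1627 and 1423 CPM to 589, 591 and 607 CPM (-1.34 ± 0.070). Slc5a3, the myo-inositol transporter, fell by 1.08.

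**Figure D3:**
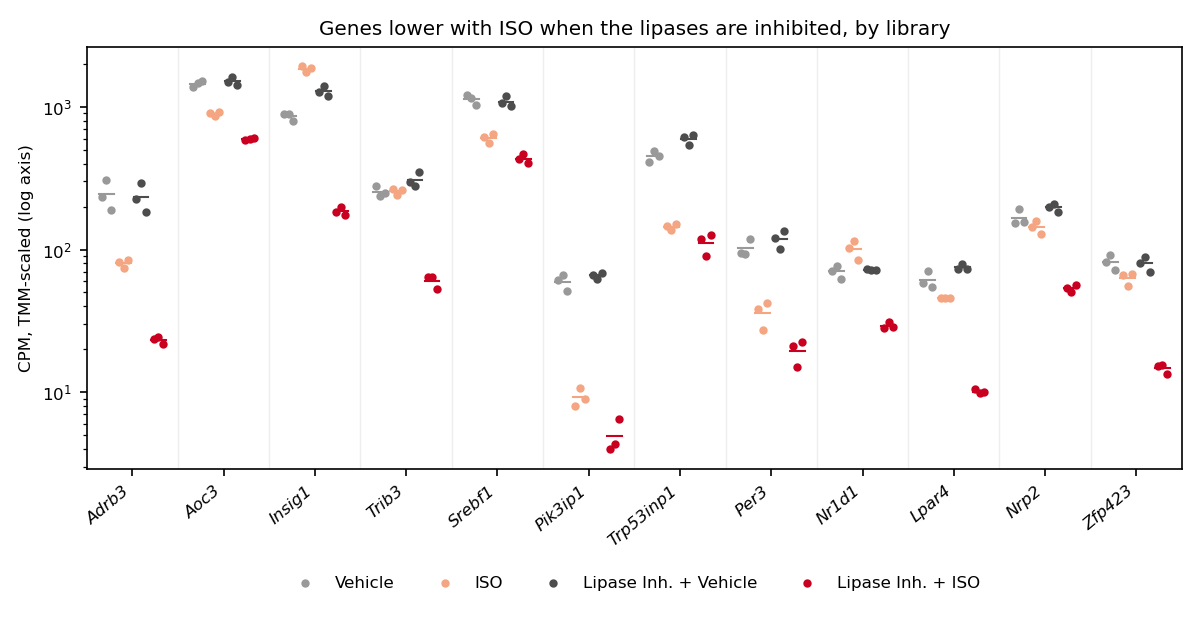
CPM on a log axis (y) of 12 genes called lower (x), drawn as in the plot of induced genes: 1 point a library, a bar at the mean of 3, light grey for Vehicle, orange for ISO, dark grey for Lipase Inh. + Vehicle and red for Lipase Inh. + ISO. The red points of every gene lie below its dark grey ones, and for Insig1 and Nr1d1 the orange points lie above the light grey ones.

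Among sterol genes the largest change was in Insig1, an endoplasmic reticulum protein that holds back the SREBP activator SCAP when sterol is ample. Insig1 (chromosome 5, 28397952 to 28405202) fell from 1269, 1408 and 1201 CPM to 184, 200.1 and 175 CPM (-2.80 ± 0.077, adjusted p = 1.95e-17). Insig2, its relative, rose from 107, 107 and 123 CPM to 301, 261 and 356 CPM (1.44 ± 0.10). Of 26 genes of cholesterol synthesis and other SREBP2 targets, 5 were called lower (Insig1, Fdft1, Mvd and Sc5d among them) and 4 higher (Pmvk, Hsd17b7, Insig2 and Idi1), so the list had no single direction. Fdft1, squalene synthase, went from 119.6, 120.4 and 114 CPM to 44.1, 41.4 and 43.6 CPM (-1.45 ± 0.070). Pmvk, phosphomevalonate kinase, rose from 64.1, 84.9 and 54.4 CPM to 240.2, 289 and 268 CPM (1.98 ± 0.16). Srebf2, which encodes SREBP2, was at -0.32, under the threshold of size.

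The calls for fatty acid synthesis had 1 direction, although the smaller changes did not. Of 22 genes 7 were called lower (31.8%) and 0 higher, with a median log2 fold change of -0.70. At an adjusted p of at most 0.05 alone 13 were lower and 6 higher, beside 3440 and 3574 of the 12156 genes tested. Srebf1, the transcription factor of lipogenesis, fell from 1068, 1191 and 1013 CPM to 429.6, 466 and 406 CPM (-1.33 ± 0.080). Thrsp, a lipogenic regulator, fell from 545, 656 and 472 CPM to 164, 167 and 153 CPM (-1.79 ± 0.12), together with its partner Mid1ip1 (-1.48). The desaturases Fads1 and Fads3 were called lower (-1.19 and -1.64) and Fads2, at -0.93, was just under the threshold of size. Fasn was at -0.96 ± 0.087, Acaca at 0.60 ± 0.064, and Scd1, the most abundant mRNA of the list at a mean of 54352 CPM without ISO, at 0.39 ± 0.12.

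Insulin signalling genes and FOXO targets were called lower more often than higher, with 7 of 30 called lower (23.3%), 1 higher and a median of -0.60. Pik3ip1, which restrains PI3-kinase, went from 66.8, 62.6 and 68.8 CPM to 3.96, 4.302 and 6.44 CPM (-3.69 ± 0.15, adjusted p = 6.92e-15). Trp53inp1 fell from 613, 542 and 636 CPM to 118, 89.3 and 127 CPM (-2.42 ± 0.10) and Gadd45a, a stress and growth arrest gene, from 63.2, 51.1 and 73.4 CPM to 11.7, 10.3 and 12.1 CPM (-2.46 ± 0.13). The atrophy ligase Fbxo32, the sestrins Sesn1 and Sesn3 and the rodent insulin receptor substrate Irs3 were called lower too, between -1.83 and -1.35. Irs1 and Irs2 were at 0.34 and 0.35, and Insr at -0.22. Ddit4, an inhibitor of mTORC1, was the exception in direction: it rose from 60.2, 63.3 and 45.8 CPM to 417, 503 and 408 CPM (2.98 ± 0.13).

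Several transcription factors of the fat cell program fell, while Pparg and Cebpa (0.48) did not. Of 38 adipogenic factors 8 were called lower (21.1%) and 3 higher. Zfp423, a factor of fat cell commitment that holds back the thermogenic program, fell from 81.0, 88.7 and 69.7 CPM to 15.2, 15.6 and 13.4 CPM (-2.45 ± 0.14, adjusted p = 1.83e-12). Ebf1, Klf11, Klf13 and Zbtb16 lay between -1.66 and -1.45. The 3 that rose were Vdr, Tle3 and Esrra. Among 33 nuclear receptors 6 were called higher and 9 lower. The rises were the 3 NR4A receptors, Vdr, Esrra and Rorb, and the falls took in receptors for steroids, retinoids and thyroid hormone. Esr1 fell from 20.6, 19.8 and 25.2 CPM to 4.41, 5.31 and 5.83 CPM (-2.06 ± 0.18), and Rxra, the shared partner of Vdr and the PPARs, from 359.9, 361 and 344 CPM to 124, 125 and 131 CPM (-1.48 ± 0.073). Rarg and Thra were at -1.40 and -1.43. Pparg was at -0.0052, with 521, 507 and 519 CPM and 521, 508 and 512 CPM in the groups without and with ISO.

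Clock genes were called lower more often than higher. Of 22 clock genes 7 were called lower (31.8%) and 3 higher, with a median of -0.54. Per3 fell from 120.2, 100.0 and 134 CPM to 21.1, 15.01 and 22.6 CPM (-2.58 ± 0.18), and Nr1d1, which encodes the repressor REV-ERBα, from 73.0, 71.8 and 71.9 CPM to 28.2, 30.9 and 28.4 CPM (-1.31 ± 0.11). The PAR-bZIP output genes Dbp, Tef and Hlf fell by 1.25, 1.27 and 1.64. Arntl, the activator BMAL1 that REV-ERBα represses, rose from 17.4, 20.1 and 16.6 CPM to 49.2, 55.7 and 47.7 CPM (1.497 ± 0.12), as did Nfil3, the antagonist of the PAR-bZIP factors (1.43 ± 0.083). Clock and Per1 were at 0.18 and 0.19, and Per2 at -0.50.

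Developmental signalling genes were also called lower more often than higher. Of 48 genes of Notch, Wnt, BMP and TGF-β signalling 10 were called lower (20.8%) and 3 higher (Tgfbr3, Id2 and Fzd9). The last 2 depended on single libraries: without Lipase Inh. + Vehicle replicate 2 their log2 fold changes were 0.91 for Id2 and 0.87 for Fzd9, and Fzd9 was at 0.95 and 0.97 without ISO replicates 1 and 3. The fringe glycosyltransferases Mfng and Lfng, which tune Notch, fell by 1.79 and 1.57, and Notch1 from 60.5, 53.8 and 66.2 CPM to 26.2, 24.5 and 25.3 CPM (-1.25 ± 0.092). Acvr1c, the activin receptor ALK7 of adipocytes, went from 698, 706 and 649.6 CPM to 225, 216 and 216 CPM (-1.64 ± 0.085), and Smad9 from 27.1, 27.1 and 27.6 CPM to 9.81, 7.41 and 8.72 CPM (-1.66 ± 0.12). Among semaphorins and their receptors 4 of 24 were called lower and 2 higher. Nrp2, a coreceptor for class 3 semaphorins and VEGF, fell from 200.1, 209.6 and 182 CPM to 53.4, 50.5 and 56.7 CPM (-1.88 ± 0.092), while its paralogue Nrp1 was at 0.83 ± 0.062. Of 44 genes of the matrix list 4 were called higher (9.09%) and 2 lower (4.55%), or 0 and 4 with total counts only. Of all genes tested 5.43% were called higher and 7.63% lower. The basement membrane collagens Col4a1 and Col4a2 rose by 1.06 and 1.14.

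**Figure D4:**
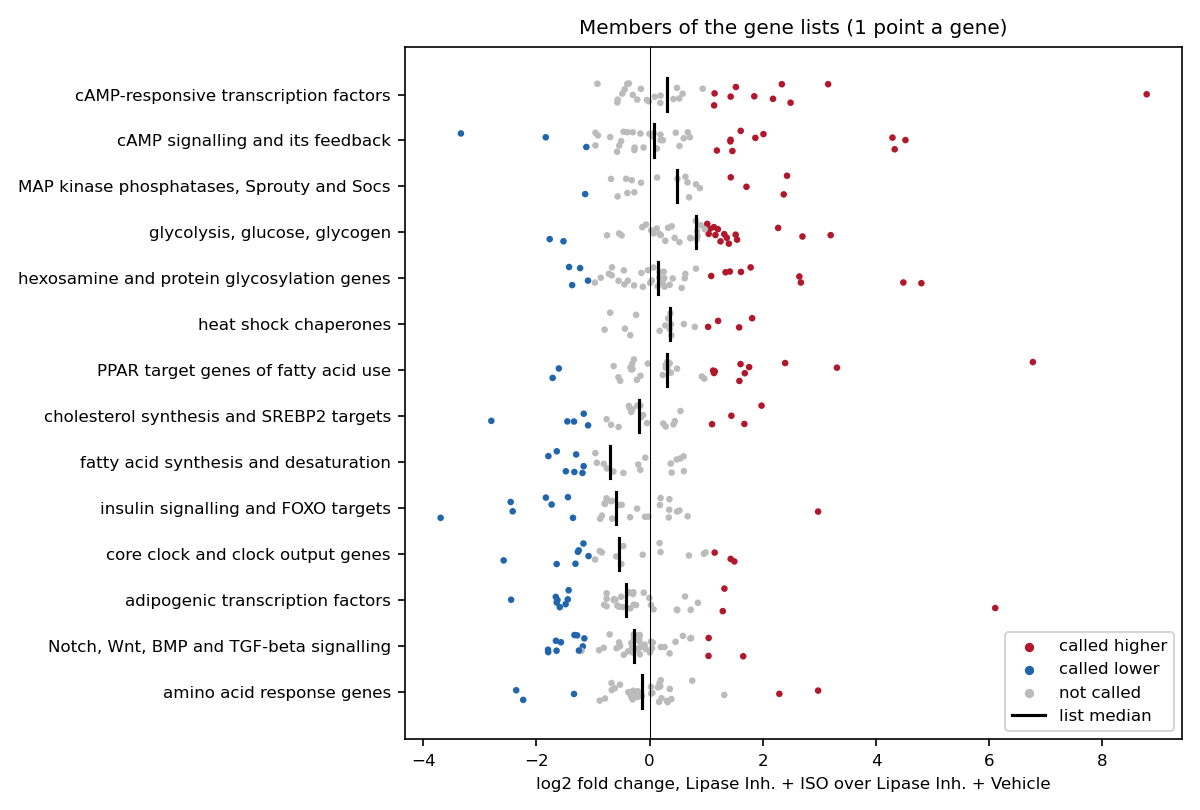
Log2 fold change of Lipase Inh. + ISO over Lipase Inh. + Vehicle (x axis) for each tested member of 14 gene lists (rows, 1 point a gene), with genes called higher in red, called lower in blue and others in grey, and the list median as a black bar. The median of glycolysis and glucose genes lies furthest to the right, at 0.82, and that of fatty acid synthesis furthest to the left, at -0.70.

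Some chaperones of the cytosol rose. Of 18 heat shock genes 4 were called higher and 0 lower. Hspa8, the constitutive HSP70, went from 1039.5, 1107 and 959 CPM to 2492, 2529.9 and 2157 CPM (1.21 ± 0.093), and Hsph1, Bag3 and Hsp90aa1 rose by 1.81, 1.58 and 1.03. The inducible HSP70 genes Hspa1a and Hspa1b were at -0.80 and -0.70, against 3.00 and 2.72 without inhibitors; these 2 are near-identical copies, so reads can be shared between them. Of 24 markers of the unfolded protein response that the study lists, 4 were called higher (16.7%) and 2 lower (8.33%). The shares over all genes tested were 5.43% and 7.63%. Dnaja4 had the largest rise (3.07 ± 0.14), and Ddit3, which encodes the apoptotic factor CHOP, fell from 157, 144 and 169 CPM to 56.9, 56.9 and 56.4 CPM (-1.47 ± 0.077).

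The amino acid response list was near the background of all genes. Of 35 tested, 2 were called higher (Ddit4 and Eprs) and 3 lower, and Atf4 itself was at 0.029 (adjusted p = 0.776). Trib3, a pseudokinase and target of ATF4 and CHOP, fell from 296, 280.1 and 349 CPM to 64.6, 64.4 and 52.6 CPM (-2.36 ± 0.10, adjusted p = 1.34e-14) and Chac1, which degrades glutathione, from 33.5, 32.6 and 39.1 CPM to 9.18, 8.24 and 5.73 CPM (-2.23 ± 0.14). Eprs, which encodes an aminoacyl-tRNA synthetase, rose from 165, 166 and 155 CPM to 782, 803 and 789.7 CPM (2.29 ± 0.063), whereas the synthetase genes Gars, Nars, Iars, Aars and Mars lay between -0.14 and 0.39. Without inhibitors ISO moved the list by a median of 0.83, and 27 of its 35 members had a negative interaction, beside 16.6% of all genes tested.

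The mRNAs of the respiratory chain and the ribosome had positive medians. Of 78 subunits of oxidative phosphorylation 4 were called higher and 0 lower, a share near the background. At an adjusted p of at most 0.05 alone 49 of the 78 were higher, beside 3574 of the 12156 genes tested (29.4%). The median was 0.40. With total counts only it was 0.18 and 2 were called higher. The count of 49 was taken with TMM factors only. Atp5d, a subunit of ATP synthase, was the most abundant of those called, from 445, 498 and 401 CPM to 975, 1067 and 991 CPM (1.17 ± 0.14). Of 81 cytosolic ribosomal proteins 4 were called higher and 0 lower, with a median of 0.34, and with total counts only 0 were called, with a median of 0.11; many of these genes have near-identical pseudogenes and low counts for their kind, so their values are uncertain. The mitochondrial NAD carrier Slc25a51 rose from 329, 307 and 321 CPM to 1827, 1816 and 1801 CPM (2.51 ± 0.059, adjusted p = 1.37e-18). Its list was near the background. Of 42 carriers 3 were called higher (7.14%) and 2 lower (4.76%), beside 5.43% and 7.63% of all genes tested. Slc25a27 (UCP4) fell from 5.24 CPM to 1.22 CPM (-2.05 ± 0.24). Of 312 Zfp genes, a large family of zinc finger proteins, 8 were called higher (2.56%) and 9 lower (2.88%), or 4 and 19 with total counts only. The shares of 2.56% and 2.88% lie below those of all genes tested. Those called higher included Zfp516, which activates Ucp1 in brown fat, with 88.4, 84.0 and 93.0 CPM without ISO and 335, 357 and 306 CPM with it (1.91 ± 0.074).

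The 2 arms of the response had different structural features. Genes called lower spanned a median of 31800 bp and genes called higher 19604 bp, beside 21738 bp for all genes tested. Their counted length had medians of 3177.5 bp and 2803 bp (2794.5 bp for all). The genes called lower were also less expressed before stimulation, with a median of 13.6 CPM in Lipase Inh. + Vehicle, against 21.03 CPM for those called higher and 29.5 CPM for all. These are descriptions, and the part of expression level in the difference of span was not tested.

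How much of this response was seen with lipolysis intact was read from ISO against Vehicle, which shares no library with the comparison above. There, 612 genes were called higher (5.03%) and 495 lower (4.07%). On the induced side 271 genes were called in both, 41.1% of the 660 with inhibitors and 44.3% of the 612 without. On the repressed side 239 were called in both, 25.8% of the 928 and 48.3% of the 495. Signs were alike more often than calls: 606 of the 660 and 816 of the 928 moved in the same direction without inhibitors. The median log2 fold change of the 660 genes was 1.40 with and 0.89 without inhibitors, and that of the 928 genes was -1.33 and -0.64.

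Of the 660, 355 (53.8%) rose more with inhibitors than without at an interaction adjusted p of at most 0.05, 34 rose less and 271 did not pass. Of the 928, 478 (51.5%) fell more, 5 fell less and 445 did not pass. Over all genes tested the interaction was positive in 14.9% and negative in 16.6% (1807 and 2016 genes, or 2071 and 1464 with total counts only), and with a difference of 1 or more on the log2 scale in 2.18% and 4.71% (265 and 573 genes, or 351 and 492 with total counts only). The called genes were chosen by their effect with inhibitors, which favours an excess of larger effects there, so these shares describe the lists and test nothing. Fits to single genes show the range. Vdr had an interaction of 3.09 ± 0.13 (adjusted p = 3.24e-13), with 10.6, 11.2 and 12.8 CPM in Vehicle and 90.6, 104 and 83.0 CPM in ISO. For Cldn1 it was 2.59 ± 0.21, for Gfpt2 2.47 ± 0.28 and for Uap1 2.22 ± 0.16. Nr4a3, Pde4d and Adcy3, by contrast, had interactions of -0.56 ± 0.81, 0.086 ± 0.13 and 0.32 ± 0.20, none of which passed (adjusted p = 0.646, 0.659 and 0.225), and Ucp1 had 1.11 ± 0.49 (adjusted p = 0.0885).

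Among the cAMP-responsive factors the difference went the other way. In that list 19 of 30 genes were called higher by ISO without inhibitors, beside 5.03% of all genes tested. The median of the list was 1.52, and 17 members had a negative interaction, beside 16.6% of all genes tested. Nr4a1 was at 14.5, 13.7 and 13.5 CPM in Vehicle and 415, 479 and 348 CPM in ISO, a log2 fold change of 4.89 that was 2.34 with inhibitors (interaction -2.56 ± 0.15, adjusted p = 5.05e-11). Atf3 went from 5.00 to 1.14, and Ppargc1a from 3.83 to 1.85 (interaction adjusted p = 2.84e-11 and 3.62e-11). Crem had the opposite sign, with 1.61 without and 2.49 with inhibitors (adjusted p = 1.06e-04).

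**Figure D5:**
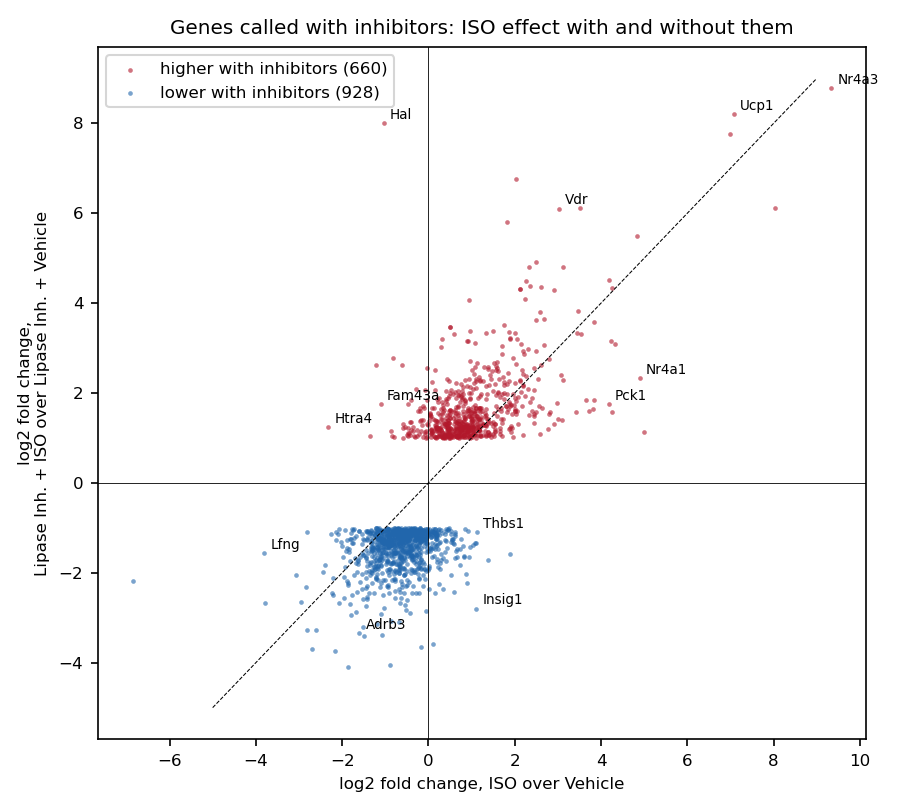
Log2 fold change of Lipase Inh. + ISO over Lipase Inh. + Vehicle (y axis) against that of ISO over Vehicle (x axis) for the 660 genes called higher (red) and the 928 called lower (blue) with inhibitors; the dashed line marks equal effects. Vdr lies above the line and Nr4a1 and Pck1 below it, while Insig1 and Thbs1 lie right of 0 on the x axis and below 0 on the y axis.

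Falls that needed the inhibitors to pass the thresholds included genes with a small or no response without them. Lpar4 was at -0.43 without and -2.90 with inhibitors, Ffar2 at -0.090 and -2.13, Zfp423 at -0.38 and -2.45, Trib3 at 0.010 and -2.36, and Esr1 at -0.12 and -2.06. Each of these 5 interactions passed, with adjusted p-values of 7.99e-12, 1.53e-07, 1.59e-08, 1.98e-11 and 2.45e-06. On the induced side Hal reached a mean of 8.29 CPM with inhibitors and ISO and 0.0511 CPM with ISO alone, and Cyp2ab1 was at 0.94 without and 4.07 with inhibitors (interaction adjusted p = 1.02e-08). Of the 239 falls called in both conditions, 48 were larger with inhibitors at an interaction adjusted p of at most 0.05. Over all genes tested the interaction was negative in 16.6%. The 48 included Pik3ip1 (-2.69 without and -3.69 with inhibitors), Mmp11 (-2.07 and -2.66) and Slc6a6 (-1.58 and -2.21). Their interaction adjusted p-values were 7.41e-04, 0.0487 and 1.30e-05.

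The inhibitors alone moved few genes of any kind past the thresholds. Lipase Inh. + Vehicle serves as control above and is also a term in the following values, which are therefore given side by side only. Against Vehicle, 5 of the 660 and 0 of the 928 genes passed both thresholds in Lipase Inh. + Vehicle, with medians of -0.041 and 0.089. Over all genes tested, 1 was called higher (0.00823%) and 5 lower (0.0411%) in that comparison. Ffar4, Sema3g and Apln were lower with inhibitors alone (-1.47, -1.26 and -0.95) and Insig1 was higher (0.59). Vdr, Adrb3 and Nr4a1 were at 0.061, -0.057 and -0.043. SR-3420 with inhibitors, against the same control, passed both thresholds in 11 and 9 of the genes, with 0.214% of all genes called higher and 0.0823% lower, and its group holds 1 library with 4263755 counts of which Lars2 took 18.3%.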

How the data were processed

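Total RNA of BAT-LgT brown adipocytes was sequenced by the authors (TruSeq), and the submitters' processing notes name STAR 2.4.2a, HOMER and mm9. The deposited table holds raw counts per gene, which the authors made with iRNA-seq 1.1. The stated methods count 1 read per position and length, but Scd1 held at least 33.3 counts per counted base in every library, so that limit is not evident in the table. Each column was matched to its sample by the SM number in the labels. No read pair or duplicate information was used here.

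Genes were filtered with filterByExpr (minimum count 10, minimum total 15), which left 12156 of 20295. One edgeR 4.0.16 quasi-likelihood model (TMM factors, 6 groups of 3, R 4.3.3) was fitted to all 18 libraries and gave every p-value, adjusted by Benjamini-Hochberg over all genes tested. Interactions are the effect of ISO with inhibitors minus that without, on the log2 scale, and were called by the adjusted p alone unless a threshold of size is stated. SE is the absolute log2 fold change divided by the square root of F. CPM values use TMM library sizes. The model was run on simulated data (3-fold changes in 200 of 12001 genes, of which 200 were recovered, with 5 others called). Those counts were drawn from the spread that the model had fitted. Rises and falls were equal in number, and genes of low level were left unchanged. The run therefore checks the code, and cannot test the scaling or the calls of genes with few counts. Replicate libraries differed beyond sampling noise (chi-square per degree of freedom 3.82 to 10.7). Intervals of depth cover counting error only.

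The genes named are the 12 largest rises and 15 largest falls among well expressed genes, list members by size of change or role, the most abundant called genes and those with the largest or opposite interactions. The members and lists were chosen with earlier results of these data known. Alternatives were DESeq2 1.42.0, other scalings and filters, a replicate block, thinned libraries and leaving out each library. A column of gene annotation (RefSeq accession, mm9 position) was used for coordinates and counted length, and promoters came from a RefSeq table of GRCm38.p6. A few list members are counted but not reported by name here.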

Additional observations from a re-analysis of the deposited data

Results flagged for a closer look

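ISO changed 10 genes in opposite directions with and without lipase inhibitors, past both thresholds each time, and the difference itself was tested as an interaction in the edgeR quasi-likelihood model. In 7 of them ISO raised the mRNA without inhibitors and lowered it with them. Insig1 was the most abundant, with 889, 891 and 799 CPM in Vehicle and 1931, 1751 and 1862 CPM in ISO, but 1269, 1408 and 1201 CPM and 184, 200.1 and 175 CPM in the matching groups with inhibitors (interaction -3.90 ± 0.10, adjusted p = 9.96e-17). The log2 fold changes of Thbs1, which encodes the matrix protein thrombospondin 1, were 1.12 without and -1.103 with inhibitors (interaction -2.22 ± 0.15), and those of the Wnt receptor gene Fzd5 were 1.07 and -1.33 (interaction -2.40 ± 0.16). The other 4 of these were Extl1 (interaction -3.48 ± 0.33), Tmem140 (-2.44 ± 0.27), Gramd1b (-2.43 ± 0.20), which encodes a sterol transfer protein, and Prdm1 (-3.09 ± 0.90). Prdm1 rests on counts of 6, 12 and 6 against 2, 0 and 5 with inhibitors.

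In 3 genes the order was the reverse. Htra4, a serine protease, had log2 fold changes of -2.33 without and 1.24 with inhibitors (interaction 3.57 ± 0.58, adjusted p = 6.36e-05), with a mean of 3.31 CPM at its highest. Fam43a was at -1.104 and 1.75 (interaction 2.85 ± 0.16) and the Wnt receptor gene Fzd9 at -1.34 and 1.04 (interaction 2.38 ± 0.45). Some calls with inhibitors depended on single libraries. Htra4 was at 0.95 without Lipase Inh. + Vehicle replicate 3, and Fzd9 at 0.87 without Lipase Inh. + Vehicle replicate 2 and at 0.95 and 0.97 without Lipase Inh. + ISO replicates 1 and 3. Prdm1 had adjusted p = 0.212 without Lipase Inh. + Vehicle replicate 2, and 0.0759 and 0.132 without Lipase Inh. + ISO replicates 1 and 2.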

How the results depend on the processing

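The counts of 660 higher and 928 lower genes stayed within 1.5 times under every alternative except scaling by total counts only, which gave 439 and 1436, and for ISO without inhibitors 339 and 1191. That scaling moves the median gene by -0.23, and upper quartile factors (534 and 1133) by -0.11. The other settings gave 656 and 912 (DESeq2), 661 and 927 (RLE factors), 705 and 945 (no filter), 535 and 703 (minimum count 50), 632 and 894 (only the 2 groups), 669 and 943 (without the shallow SR-3420 library) and 652 and 898 (thinned libraries). Leaving out each library in turn gave 637 to 696 and 874 to 980. A setting without 96 genes of short counted length, added after the data were seen, gave 660 and 927. Genes called under one of these settings and also tested in the reported fit had 0 opposite signs. Interaction counts stayed within 1.5 times, with or without the threshold of size, and so did the 355 and 478 larger effects, which ranged from 327 to 381 and from 426 to 521. Of 60 list counts, 18 moved by over 1.5 times with total counts only and 6 with upper quartile factors. Deviations from the group mean were weakly correlated between the 2 groups for replicate numbers 2 and 3 (0.182 and 0.152), but not for number 1 (-0.003). Means over all pairs of groups were -0.012, 0.150 and 0.190 for numbers 1, 2 and 3. A weak sharing by number is therefore possible, and the reported fit has no replicate block. With the replicate block the calls were 664 and 939, and every direction was kept. Of the 154 genes that the naming rule chose by value, 19 lost a call in at least 1 setting, and 0 changed direction. Leaving out 1 library ended the call of B3gnt8, Prdm1, Htra4, Fzd9, Id2, Amotl1, Slc25a13, Rps13 and Rps29. Depth limits genes of few counts such as Prdm1 and B3gnt8.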
